A study of Homo sapiens with 18 samples.

Results

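The axon guidance ligands and receptors are 70 protein-coding genes of the semaphorin, plexin, neuropilin, ephrin, Eph receptor, slit, robo, netrin and UNC5 families, with the netrin receptor DCC. They were chosen by gene symbol from 19675 protein-coding genes that could be placed with a strand on the human genome. Histone marks at these genes were measured by chromatin immunoprecipitation sequencing (ChIP-seq) in V16D, a line of castration-resistant prostate cancer cells that descends from LNCaP. The cells were transduced with a control lentivector (V16D/CTL) or with a lentivector that overexpresses the long noncoding RNA H19 (V16D/H19), in biological triplicate. Each group therefore had 3 libraries for H3K4me3 and 3 for H3K27me3, and all groups shared the same parental line, so they describe 1 cell line and 1 overexpression construct.

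Axon guidance genes encode secreted or membrane-bound cues and the receptors that read them. Semaphorins signal through plexins, with neuropilins as co-receptors for the secreted class 3 members. Ephrins bind Eph receptor tyrosine kinases on neighbouring cells, slits bind robo receptors, and the netrin NTN1 acts through DCC and the UNC5 receptors. The same families steer cell movement and adhesion in epithelia and in tumours. H3K4me3 marks active or poised gene starts, H3K27me3 is laid down by the Polycomb repressive complex PRC2, and starts that carry both marks are called bivalent. The comparison of V16D/H19 with V16D/CTL addresses whether overexpressed H19 goes with other levels of the 2 marks at these genes.

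Per library, 20048 to 21934 peaks were listed for H3K4me3 and 55060 to 72289 for H3K27me3. H3K27me3 peaks covered 45.1 to 62.2 Mb of the genome per V16D/CTL library and 42.3 to 48.4 Mb per V16D/H19 library, and the part of this difference in the H3K27me3 results below was not tested. Read depth was not used here. Of 8 luminal prostate markers, among them KLK3, TMPRSS2 and HOXB13, all 8 promoters held an H3K4me3 peak in all 6 libraries, and 0 held an H3K27me3 peak. Of 6 matched markers of leukocytes, endothelium, fibroblasts and erythroid cells, 5 had no promoter H3K4me3 peak in any library, and COL1A1 had a promoter peak of each mark in all 6.

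The promoters of EPHA6, SEMA3C, EPHA7 and PLXNA4 are printed here so that the base composition of each can be read beside its marks. UNC5B, described below, had no entry among the promoter sequences used and is not printed. Each is a RefSeq sequence on GRCh38.p14 from 250 bases before to 50 bases after a listed start, with CG dinucleotides in capitals. Where a gene had several listed starts, the one with the highest H3K4me3 fold over input is given. EPHA6 lies on chromosome 3 (chr3:96814344-96814643, plus strand), SEMA3C on chromosome 7 (chr7:80919002-80919301, minus strand), EPHA7 on chromosome 6 (chr6:93417333-93417632, minus strand) and PLXNA4 on chromosome 7 (chr7:132576421-132576720, minus strand).
EPHA6: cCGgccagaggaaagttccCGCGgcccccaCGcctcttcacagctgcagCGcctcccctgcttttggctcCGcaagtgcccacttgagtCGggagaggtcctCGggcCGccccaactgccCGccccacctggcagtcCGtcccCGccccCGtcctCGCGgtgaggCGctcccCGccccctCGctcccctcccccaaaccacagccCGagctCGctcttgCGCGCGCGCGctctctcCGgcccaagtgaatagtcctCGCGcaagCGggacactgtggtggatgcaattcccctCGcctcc
SEMA3C: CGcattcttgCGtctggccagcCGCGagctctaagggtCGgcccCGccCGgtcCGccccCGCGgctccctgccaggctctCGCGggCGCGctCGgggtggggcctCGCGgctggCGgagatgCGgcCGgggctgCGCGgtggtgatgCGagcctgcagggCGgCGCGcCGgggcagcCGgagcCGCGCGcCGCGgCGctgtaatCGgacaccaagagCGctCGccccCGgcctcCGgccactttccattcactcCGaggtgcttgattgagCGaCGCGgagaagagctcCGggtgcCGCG
EPHA7: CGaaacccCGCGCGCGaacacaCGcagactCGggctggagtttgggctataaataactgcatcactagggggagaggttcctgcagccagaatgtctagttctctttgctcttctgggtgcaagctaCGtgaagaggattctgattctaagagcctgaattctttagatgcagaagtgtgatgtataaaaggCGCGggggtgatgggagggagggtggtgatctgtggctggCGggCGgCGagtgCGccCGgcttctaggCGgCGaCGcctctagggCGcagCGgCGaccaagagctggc
PLXNA4: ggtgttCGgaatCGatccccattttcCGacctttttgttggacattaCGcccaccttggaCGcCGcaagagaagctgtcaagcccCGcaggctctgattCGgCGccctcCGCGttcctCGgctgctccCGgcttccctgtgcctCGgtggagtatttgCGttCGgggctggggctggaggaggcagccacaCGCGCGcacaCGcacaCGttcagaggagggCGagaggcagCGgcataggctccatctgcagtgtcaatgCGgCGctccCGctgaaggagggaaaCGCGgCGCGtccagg

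SEMA3C had the most CG dinucleotides of these, 46 in 300 bases, against 30 in EPHA6 and PLXNA4 and 21 in EPHA7. Over the 93 listed starts of the 59 genes with an entry the median was 21, as it was over all 22183 starts of protein-coding genes. The letters GGGCGG, searched on both strands, were found at 67 of the 93 starts (72.0%) and at 56.3% of all starts. The letters TATAAA, searched on both strands, were found at 3 of the 93 starts (3.23%) and at 9.47% of all starts.

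Most axon guidance genes carried H3K4me3 at the promoter, and many also carried H3K27me3. A promoter peak here is a peak that touches the 1 kb on either side of any listed RefSeq start or of the gene's 5′ end. For 11 genes without a listed start, among them UNC5B, EPHA10 and NTN3, only the 5′ end was used. H3K4me3 promoter peaks were found at 61, 62 and 60 of the 70 genes in V16D/CTL and at 62, 62 and 60 in V16D/H19. That is 87.1% and 87.6% of the genes on average, beside 65.4% and 66.1% of all 19675 genes. H3K27me3 promoter peaks were found at 31, 29 and 30 genes in V16D/CTL and at 28, 32 and 30 in V16D/H19. The groups overlapped for both marks, with means of 61 ± 1 and 61.3 ± 1.16 genes for H3K4me3 and 30 ± 1 and 30 ± 2 for H3K27me3 (SD, n = 3). The share of axon guidance genes with an H3K27me3 promoter peak was 42.9% on average in both groups. Over all genes it was 12.1% in V16D/CTL, with 2230, 2441 and 2500 genes, against 10.8% in V16D/H19, with 2039, 2169 and 2175 genes and no overlap between the groups. The peaks of both marks overlapped at 22, 21 and 22 axon guidance genes in V16D/CTL and at 21, 23 and 20 in V16D/H19. That is 31.0% of the 70 genes on average in V16D/CTL, beside 5.70% of all genes, and 30.5% in V16D/H19, beside 5.21%.

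The stricter peaks gave another picture for H3K27me3. With peaks of a −log10 q of at least 5 only, 6, 10 and 9 axon guidance genes kept an H3K27me3 promoter peak in V16D/CTL, against 1, 2 and 2 in V16D/H19. The same filter left 289, 368 and 416 genes of all 19675 in V16D/CTL, against 72, 94 and 113 in V16D/H19, so the count was lower in V16D/H19 over all genes as well.

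**Figure D1:**
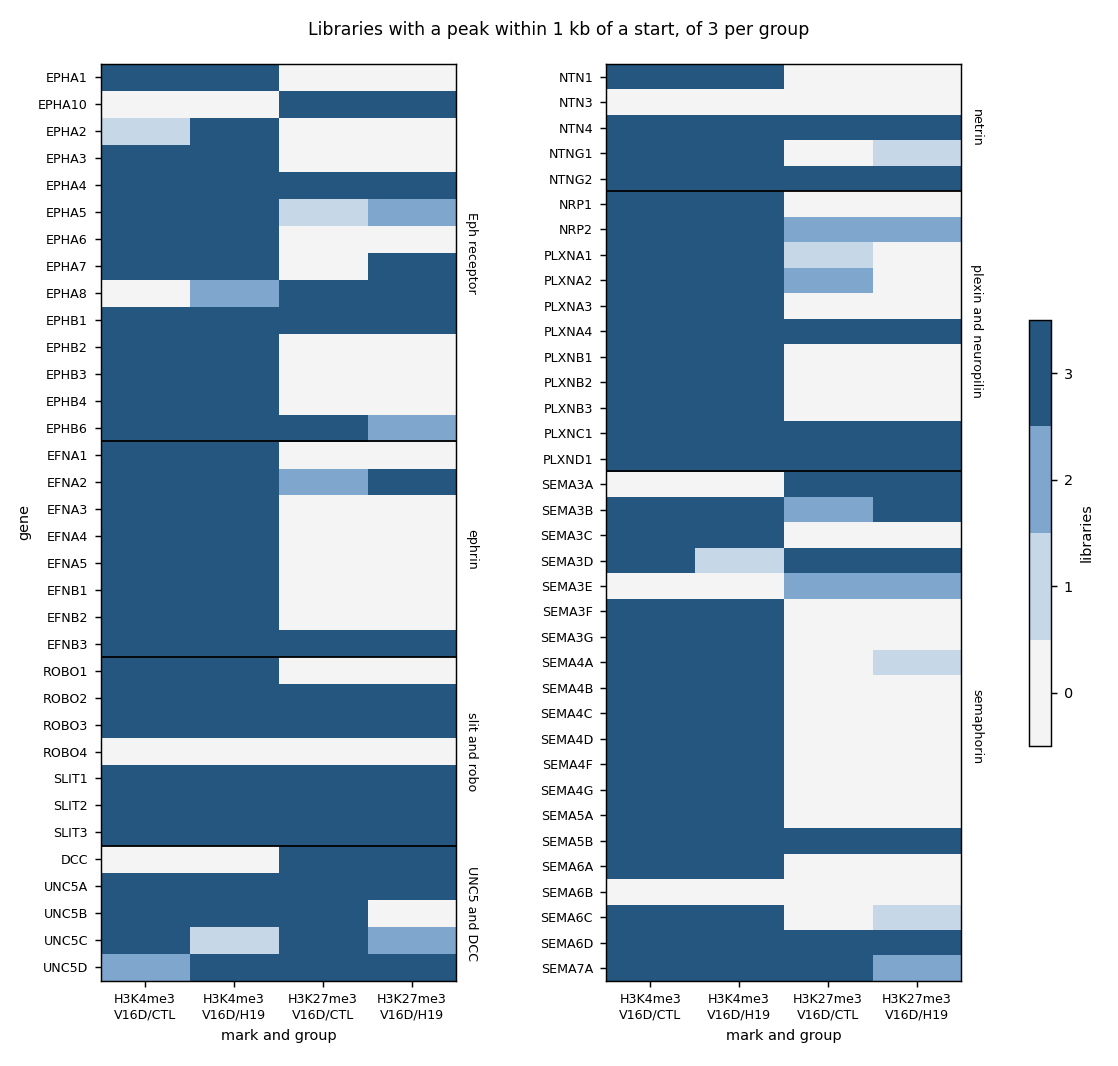
Each row is 1 of the 70 genes, grouped by family, and each column is a mark in a group; the shade gives the number of the 3 libraries with a peak within 1 kb of a start. Of the 70 genes, 29 have H3K4me3 alone in all 6 libraries and 16 have a peak of each mark in all 6, and the H3K27me3 columns differ fully between groups at EPHA7 and UNC5B.

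By their state over all 12 lists, 29 genes (41.4%) had H3K4me3 in all 6 libraries and H3K27me3 in none, a state found at 55.7% of all genes. Both marks, each counted on its own, had a promoter peak in all 6 of their libraries at 16 genes (22.9%), beside 3.76% of all genes. The peaks of the 2 marks need not overlap in this count: they overlapped in all 3 replicates of both groups at all of these genes but ROBO3, with 1 replicate in each group, and EPHA4, with 3 in V16D/CTL and 2 in V16D/H19. The promoters of SEMA3A, EPHA10 and DCC had H3K27me3 in all 6 libraries without H3K4me3, and those of NTN3, ROBO4 and SEMA6B had neither mark. Away from the promoter, the gene windows of EPHA10, NTN3 and DCC held H3K4me3 peaks in all 6 libraries. Their highest folds over input were 19.1 to 55.0 at EPHA10, 29.0 to 96.3 at NTN3 and 5.02 to 8.72 at DCC. At EPHA10 and NTN3 only the 5′ end of the gene was read as a promoter. The other 19 genes varied between libraries.

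Among the ligands, the ephrins, which are anchored in the membrane, mostly carried H3K4me3 alone, in 6 of 8 genes. EFNA4, EFNA3 and EFNA1 lie close together on chromosome 1 and had no H3K27me3 peak in any library. By the mean over the 6 libraries EFNA3 had the highest promoter H3K4me3 fold over input of the ephrins, at 42.0, 56.4 and 59.7 in V16D/CTL, against 53.2, 65.6 and 59.2 in V16D/H19. Its mean of 56.0 lay close to the 53.8 of EFNA1, and EFNA1 was above it in 3 libraries. EFNB3 was the only ephrin with a promoter peak of each mark in all 6 libraries, with 1.93, 1.30 and 3.38 kb covered by H3K27me3 in V16D/CTL, against 2.12, 1.76 and 1.56 kb in V16D/H19.

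All 3 slits, the secreted ligands of the robo receptors, had a promoter peak of each mark in all 6 libraries, as did ROBO2 and ROBO3. ROBO1 carried H3K4me3 alone, with 3.60, 3.10 and 3.29 kb covered in V16D/CTL, against 3.57, 3.15 and 2.99 kb in V16D/H19. SLIT2 was the slit or robo gene with the most H3K27me3, which covered 27.9, 38.9 and 37.2 kb in V16D/CTL, against 24.8, 25.6 and 29.0 kb in V16D/H19. These ranges overlapped. ROBO4, the robo of endothelial cells, had no peak of either mark.

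Of the 20 semaphorins, 10 carried H3K4me3 alone and 2, SEMA5B and SEMA6D, had a promoter peak of each mark in all 6 libraries. By its mean SEMA4B had the highest promoter H3K4me3 fold of the family, from 47.4 to 78.9 over the 6 libraries, but SEMA3F and SEMA4D were among the genes above it in single libraries. The class 3 semaphorins on the long arm of chromosome 7 differed from each other. SEMA3A, a repellent of growing axons, had 22.8, 34.9 and 37.5 kb of H3K27me3 in V16D/CTL, against 29.0, 27.6 and 28.6 kb in V16D/H19, and no promoter H3K4me3 in any library. SEMA3E and SEMA3D, in the same stretch, had 24.8 to 33.6 kb and 19.4 to 33.7 kb of H3K27me3. SEMA3C had H3K4me3 in all 6 libraries and no H3K27me3 at its promoter in any.

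Of the netrins, NTN4 and NTNG2 had a promoter peak of each mark in all 6 libraries. NTNG2 had 15.4, 17.5 and 17.1 kb of H3K27me3 in V16D/CTL, against 15.7, 16.2 and 12.5 kb in V16D/H19, which overlapped. NTNG1 had the highest mean promoter H3K4me3 fold of the netrins, from 22.6 to 32.6. Among the receptors, H3K27me3 covered the most bases at EPHB1 of the Eph receptors, 34.8, 41.0 and 48.2 kb in V16D/CTL, against 34.1, 41.1 and 44.6 kb in V16D/H19. EPHB4 and PLXNB2 had the highest mean promoter H3K4me3 folds of the Eph receptors and the plexins, from 39.9 to 86.8 and from 41.4 to 73.7, and no H3K27me3 peak in any library.

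The netrin receptors of the UNC5 family and DCC differed among themselves in H3K27me3, and none carried H3K4me3 alone in all 6 libraries. Read per length, H3K27me3 peaks covered 26.9% of the UNC5A window on average over the 6 libraries, against 5.69% at UNC5D, 1.35% at DCC, 1.12% at UNC5C and 0.823% at UNC5B. The other high shares in the families were 26.1% at ROBO3, 21.9% at EFNB3, 19.2% at EPHA10 and 18.4% at NTNG2, while EPHB1 and SLIT2, with more kb covered, had 8.68% and 8.22%. UNC5A had 20.0, 22.5 and 28.6 kb in V16D/CTL, against 16.5, 14.2 and 16.7 kb in V16D/H19. The groups did not overlap there (log2 difference −0.56 ± 0.24 SE, adjusted p = 0.318 in limma). UNC5D had 26.8, 29.7 and 30.1 kb in V16D/CTL, against 29.0, 38.0 and 38.9 kb in V16D/H19, which overlapped. DCC had 12.6 to 22.1 kb over the 6 libraries, and the groups overlapped there as well.

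To compare the groups gene by gene, the length covered by peaks from 3 kb upstream of a gene to its end was fitted on the scale log2(kb + 0.5) with limma across all genes where 2 or more of the 6 libraries had a peak. For H3K4me3, 67 axon guidance genes were tested and 2 passed an adjusted p of 0.05, EPHA6, which was lower in V16D/H19, and SEMA3C, which was higher. Of all 14011 genes tested, 0.478% passed (67 genes), 0.328% being higher and 0.150% lower. The median log2 difference was 0.024 over the axon guidance genes and 0.008 over all genes, with 39 of the 67 higher. At an unadjusted p under 0.05 there were 11 of 67, beside 9.81% of all genes. The covered lengths of the 2 groups did not overlap for 9 of the 67 genes, 5 higher and 4 lower, beside 14.5% of all genes tested (8.47% higher and 5.98% lower).

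For H3K27me3, 38 axon guidance genes were tested and 0 passed in limma, with 7 at an unadjusted p under 0.05. Of all 4559 genes tested, 0.0439% passed (2 genes, both lower) and 15.9% had an unadjusted p under 0.05. The median log2 difference was −0.17 over the 38 genes and −0.25 over all genes, and 27 of the 38 were lower. With each library centred on its median gene the median was 0.06 over all genes and 0.14 over the axon guidance genes, with 22 of 38 higher. Centring makes the library medians equal over genes with a peak in every library, so it removes any difference in level shared by most genes. With lists of equal length the median was −0.207 over all genes and −0.145 over the axon guidance genes, with 25 of 37 lower. What part of the lower direction comes from scaling was not tested. The groups did not overlap for 7 of the 38 genes, 1 higher and 6 lower, beside 22.1% of all genes tested (2.92% higher and 19.2% lower).

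**Figure D2:**
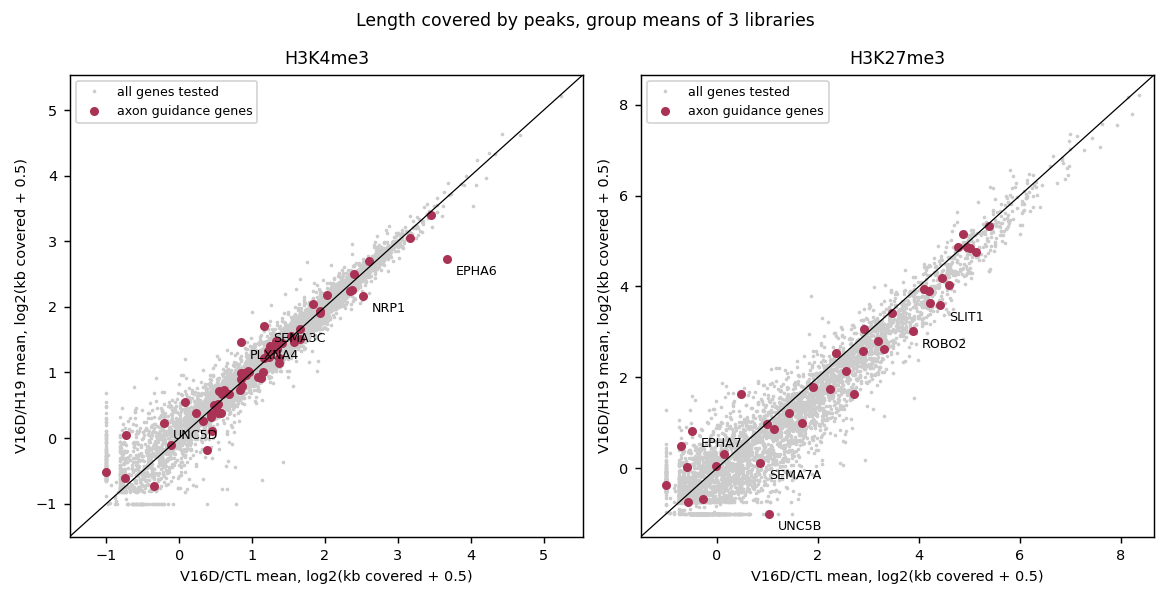
Each point is a gene, with the V16D/CTL mean on the horizontal and the V16D/H19 mean on the vertical axis, both as log2(kb covered + 0.5) over 3 libraries; grey points are all genes tested, red points the axon guidance genes and the line marks equal means. EPHA6 lies below the line for H3K4me3, with means of 12.2 and 6.17 kb, and UNC5B lies at the floor of the V16D/H19 axis for H3K27me3.

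EPHA6, an ephrin-A receptor tyrosine kinase (chr3:96814594-97761532), had 12.5, 12.6 and 11.6 kb covered by H3K4me3 in V16D/CTL, against 5.98, 6.55 and 5.97 kb in V16D/H19. Every V16D/CTL library was above every V16D/H19 library. The log2 difference was −0.93 ± 0.06 (SE; adjusted p = 0.00184 in limma). The difference lay mostly downstream of the start. Counted from the start along the gene, the main peak ran from base −2378 to base 6991 in V16D/CTL replicate 1 and from base −1785 to base 3579 in V16D/H19 replicate 1. Within 15 kb of the start, smaller peaks reached past 10 kb downstream in all 3 V16D/CTL libraries and in replicate 2 of V16D/H19. The 1 kb on either side of the start was covered in full in all 6 libraries, and limma on the promoter window gave an adjusted p of 1. The highest fold over input at the promoter overlapped, at 62.4, 54.2 and 32.5 in V16D/CTL, against 31.9, 54.3 and 35.4 in V16D/H19. No H3K27me3 peak touched the promoter in any of the 6 libraries. In the whole gene window H3K27me3 covered 0, 0.334 and 0 kb in V16D/CTL, against 1.27, 0.316 and 1.11 kb in V16D/H19, which overlapped (log2 difference 1.16 ± 0.38 SE, adjusted p = 0.214 in limma).

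SEMA3C, a secreted semaphorin (chr7:80742538-80922389), had 1.68, 1.91 and 1.65 kb of H3K4me3 in V16D/CTL, against 2.63, 2.87 and 2.79 kb in V16D/H19, with no overlap. The log2 difference was 0.54 ± 0.06 (SE; adjusted p = 0.0197 in limma). The peak widened downstream of the start whose sequence is given above, ending 1253, 1293 and 1109 bases after it in V16D/CTL, against 1983, 2431 and 2057 bases after it in V16D/H19. The call was lost without V16D/CTL replicate 1 (adjusted p = 0.0841) or 3 (0.076) and without V16D/H19 replicate 1 (0.0685) or 2 (0.0664), with log2 differences from 0.51 to 0.57.

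**Figure D3:**
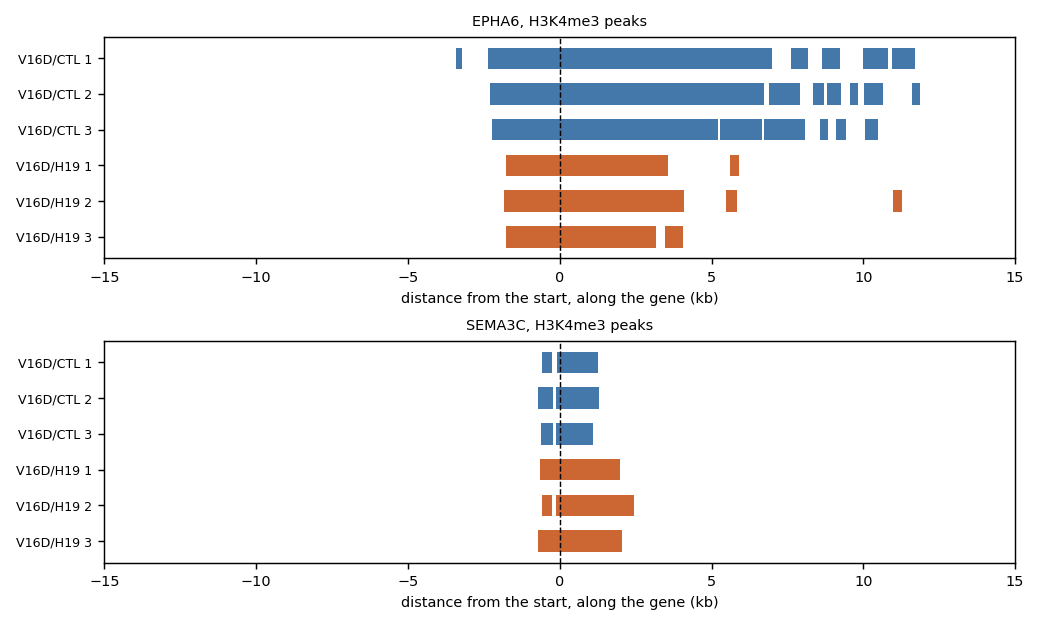
Bars are the H3K4me3 peaks of each library by distance in kb from the start, counted along the gene, in blue for V16D/CTL and orange for V16D/H19. At EPHA6 the main peak ends 5215 to 6991 bases after the start in V16D/CTL, against 3155 to 4086 bases after it in V16D/H19, and at SEMA3C the peaks end further downstream in V16D/H19.

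At PLXNA4, UNC5D and NRP1 the H3K4me3 lengths of the groups did not overlap, but the difference missed the adjusted threshold. PLXNA4, a plexin that takes part in class 3 semaphorin signalling, had 1.08, 1.43 and 1.40 kb in V16D/CTL, against 2.62, 2.09 and 2.03 kb in V16D/H19 (log2 difference 0.61 ± 0.11 SE, adjusted p = 0.115 in limma). Its H3K27me3 covered 18.1, 15.5 and 20.7 kb in V16D/CTL, against 8.76, 11.3 and 15.7 kb in V16D/H19, where the highest V16D/H19 library lay above the lowest V16D/CTL library. UNC5D, a netrin receptor on chromosome 8, had 0.289, 0.470 and 0.337 kb of H3K4me3 in V16D/CTL, against 0.692, 0.592 and 0.729 kb in V16D/H19 (log2 difference 0.44 ± 0.09 SE, adjusted p = 0.144 in limma). Each library had 1 UNC5D peak, with folds over input of 3.35, 6.91 and 4.53 in V16D/CTL, against 5.8, 7.69 and 10.03 in V16D/H19. The medians over all H3K4me3 peaks were 24.6 to 28.6 per library. The V16D/CTL replicate 3 peak did not touch the UNC5D promoter. NRP1, a neuropilin, had 6.17, 4.96 and 4.56 kb in V16D/CTL, against 4.37, 3.71 and 3.88 kb in V16D/H19 (log2 difference −0.35 ± 0.11 SE, adjusted p = 0.374 in limma).

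An H3K4me3 promoter peak found in all 3 libraries of a group and 0 of the other occurred at 0 axon guidance genes, beside 0.384% of the 13264 genes with such a peak in any library. For H3K27me3 there were 2, EPHA7 (V16D/H19 alone, as at 0.333% of 3302 genes) and UNC5B (V16D/CTL alone, as at 2.00%), beside 2.33% in either direction.

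EPHA7, an Eph receptor (chr6:93240020-93419559), had a promoter H3K27me3 peak in 0 of 3 V16D/CTL and 3 of 3 V16D/H19 libraries. These peaks had folds over input of 2.84, 3.56 and 3.61, beside medians of 3.42, 3.35 and 3.38 over all H3K27me3 peaks of those libraries. Counted from the start along the gene, they ran from base 568 to 1356, −637 to −252 and −483 to 291. The replicate 1 peak thus did not overlap the others. In the whole gene window H3K27me3 covered 0, 0.632 and 0 kb in V16D/CTL, against 1.82, 1.22 and 0.775 kb in V16D/H19 (log2 difference 1.39 ± 0.40 SE, adjusted p = 0.179 in limma). The V16D/CTL replicate 2 peak lay outside the promoter window, and with a promoter of 3 kb the presence call no longer separated the groups. Its promoter H3K4me3 fold was 35.9, 34.8 and 30.4 in V16D/CTL, against 18.6, 25.7 and 21.0 in V16D/H19, so every V16D/H19 library was lower, while the covered length overlapped.

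UNC5B, a netrin receptor (chr10:71212570-71302864), went the other way. H3K27me3 covered 1.38, 0.969 and 2.25 kb in V16D/CTL and was listed at 0 in all 3 V16D/H19 libraries. Its promoter peaks in V16D/CTL had folds over input of 3.79, 2.88 and 3.29. The medians over all H3K27me3 peaks of those libraries were 3.53, 3.37 and 3.35. The log2 difference of −1.98 ± 0.29 (SE) depends on the 0.5 kb added and gave an adjusted p of 0.0829 in limma. With 0.1 kb added it was −3.95 (adjusted p = 0.0214), and with lists of equal length the gene no longer separated the groups at the promoter. H3K4me3 at UNC5B overlapped between the groups, at 1.53, 1.04 and 1.60 kb against 1.21, 1.53 and 1.60 kb.

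**Figure D4:**
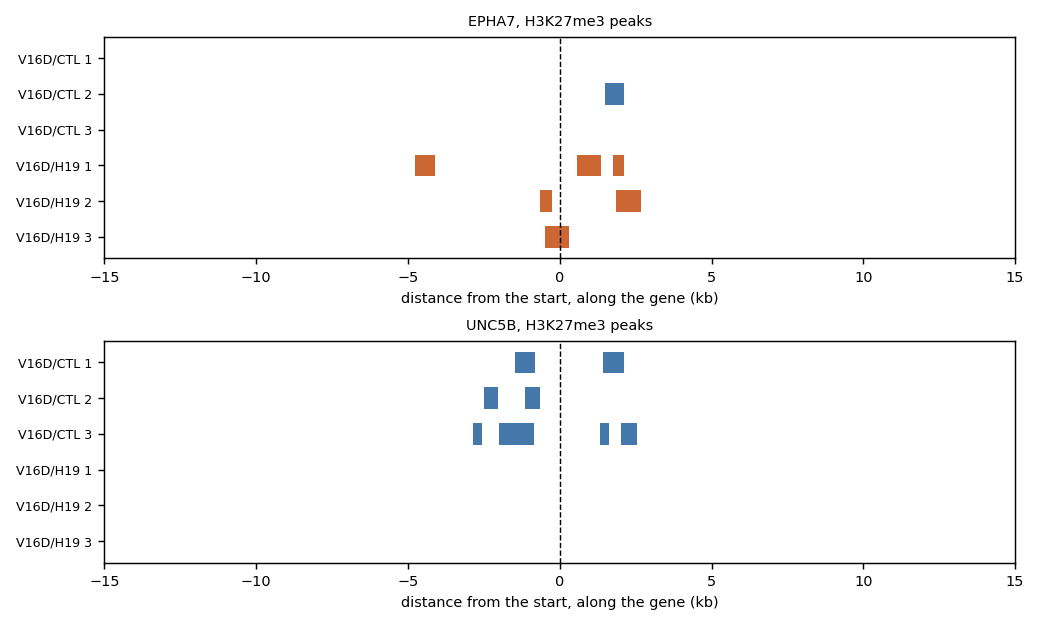
Bars are the H3K27me3 peaks of each library by distance in kb from the start, counted along the gene, in blue for V16D/CTL and orange for V16D/H19. EPHA7 has peaks in 1 V16D/CTL and 3 V16D/H19 libraries, and UNC5B in 3 V16D/CTL and 0 V16D/H19 libraries.

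H3K27me3 covered less of ROBO2, SLIT1 and SEMA7A in every V16D/H19 library than in any V16D/CTL library, though none passed the adjusted threshold. ROBO2 had 12.8, 14.7 and 15.1 kb in V16D/CTL, against 5.37, 10.4 and 6.97 kb in V16D/H19 (log2 difference −0.91 ± 0.29 SE, adjusted p = 0.209 in limma). SLIT1 had 18.4, 17.5 and 26.7 kb in V16D/CTL, against 8.52, 12.8 and 13.5 kb in V16D/H19 (log2 difference −0.82 ± 0.29 SE, adjusted p = 0.235 in limma). SEMA7A, a membrane-anchored semaphorin, had 1.52, 1.35 and 1.09 kb in V16D/CTL, against 1.03, 0.715 and 0 kb in V16D/H19 (log2 difference −0.89 ± 0.43 SE, adjusted p = 0.353 in limma). Without V16D/H19 replicate 3, where no peak was listed, the log2 difference was −0.41.

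**Figure D5:**
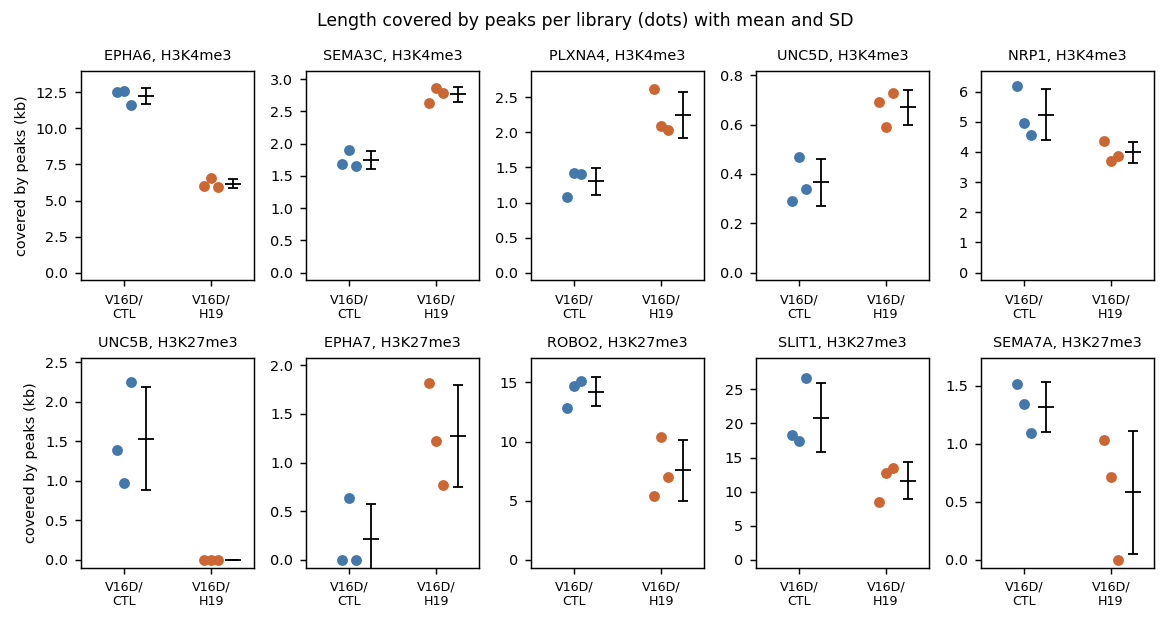
Dots are libraries, with kb covered by peaks on the vertical axis, and the black marks beside them give the mean and SD of 3 libraries. The upper panels show H3K4me3 and the lower panels H3K27me3. For each mark they hold the 5 largest differences among axon guidance genes whose groups do not overlap, so the separation in every panel follows from the choice. Over all genes tested the groups did not overlap at 14.5% for H3K4me3 and 22.1% for H3K27me3. Of the 10 panels, EPHA6 and SEMA3C passed the adjusted threshold.

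The authors' tables of differential sites assign 18 H3K4me3 sites to 15 axon guidance genes and 14 H3K27me3 sites to 11. The UNC5A H3K27me3 site and a PLXNA2 H3K27me3 site lay outside the gene windows, at −16053 and −21847 bases from the start. The sites were listed on the same contrast, so their differences are given as a description. Each value is the authors' mean log2 concentration per group. Of the H3K4me3 sites, 6 were higher in V16D/H19 (24.0% of all 1857 listed sites were) and 12 lower (76.0%). Of the H3K27me3 sites, 2 were higher (8.51% of all 1140 were) and 12 lower (91.5%).

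The main EPHA6 H3K4me3 site (chr3:96812215-96822765) had a concentration of 11.29 in V16D/CTL, against 10.59 in V16D/H19, and the intronic site at chr3:96822942-96824032 had 5.08 and 1.69. EPHA3 (10.08 and 9.54), EFNA5 (10.46 and 10.21), NRP1 (9.81 and 9.49), SEMA3D (4.86 and 3.43), SEMA6D (7.17 and 6.29) and SEMA4B (9.14 and 8.80) were also lower in V16D/H19 at their promoters. In this measure SEMA3C (7.91 and 8.53) and PLXNA2 (7.96 and 8.40) were higher in V16D/H19. EPHA2, an Eph receptor of epithelial cells, had 3.01 in V16D/CTL, against 4.59 in V16D/H19, and EPHB1 had 4.44 and 5.72. The UNC5D site had 3.81 and 5.13. Of 14 listed H3K4me3 sites of other genes within 10 Mb of UNC5D, 13 were also higher and 1 was lower, and the part of this stretch in the UNC5D values was not tested. In the same distance 1 was higher and 3 lower around EPHA6, and 1 higher and 11 lower around SEMA3C. Around EPHA7 2 were higher and 2 lower, and around UNC5B 4 were higher and 10 lower. EFNB2 had 9.46 and 9.12 at its start, and its second site had 3.09 in V16D/CTL, against −0.20 in V16D/H19, and the SEMA6B site lay at −20014 bases from the gene's start, outside its window.

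EPHA7 was listed for both marks in opposite directions: its promoter H3K4me3 concentration was 9.51 in V16D/CTL, against 8.99 in V16D/H19, and its H3K27me3 concentration was 4.33 and 5.54. PLXNA2 was the other gene in both tables, with higher H3K4me3 and, at its promoter, H3K27me3 of 6.92 in V16D/CTL, against 6.10 in V16D/H19. The H3K27me3 sites at the promoters of SLIT2 (8.46 and 8.14), PLXNC1 (7.43 and 6.91), PLXND1 (7.06 and 6.55), PLXNA4 (7.84 and 7.39) and NTNG2 (8.68 and 8.34) were lower in V16D/H19. So was the SLIT3 site (7.18 and 6.58), which the authors annotated as promoter. It lay inside the gene (chr5:168840065-168847446), away from the only listed SLIT3 start at base 169301139. The intronic SLIT1 site (6.79 and 6.05) was lower too. ROBO2 had 3 listed sites, of which the promoter site (7.65 and 7.15) and 1 intronic site (6.79 and 6.01) were lower and the other intronic site (3.90 and 5.22) was higher. Of the listed H3K27me3 sites of other genes within 10 Mb, 0 were higher and 4 lower around EPHA7. Around UNC5B 0 were higher and 1 was lower.

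Other genes of the pathway were read from fixed lists. Of 37 cytoskeletal and signalling effectors, 32 had an H3K4me3 promoter peak in all 6 libraries and 6 an H3K27me3 promoter peak in all 6, with each mark in all 6 at 5, among them the collapsin response mediators DPYSL2, DPYSL3 and DPYSL4. Of 23 other guidance cues, receptors and adhesion molecules, 13 had H3K4me3 and 7 H3K27me3 in all 6, with each mark in all 6 at 4, RGMA, DRAXIN, NRCAM and CNTN4. Over all genes, 3.76% had each mark in all 6. An H3K4me3 promoter peak was found per library at 65.39% of all genes on average in V16D/CTL and 66.06% in V16D/H19. For H3K27me3 these shares per library were 12.15% and 10.81%. In limma 0 of 33 tested effectors and 0 of 16 other cues passed for H3K4me3. At an unadjusted p under 0.05 there were 2 and 3, beside 9.81% of all genes tested. For H3K27me3 0 of 16 and 0 of 13 passed, with 2 and 2 at an unadjusted p under 0.05, beside 15.9% of all genes tested.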

How the data were processed

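ChIP-seq for H3K4me3 and H3K27me3 was analysed in 3 V16D/CTL and 3 V16D/H19 libraries per mark, grouped by the sample titles. Peaks were called by the authors with MACS2, library by library, over the matching input, narrow for H3K4me3 and broad for H3K27me3, on hg38 per the submitters' processing notes. The 12 deposited peak lists give each peak's fold over input as a ratio and its −log10 p-value and q-value. The 6 inputs entered only through the authors' peak calls. The deposited DiffBind tables, annotated with ChIPseeker, give the authors' mean log2 concentration per group at sites with an FDR up to 0.05; their fold, p-value and FDR columns hold the authors' own comparison and were not used. Aligner and tool versions are not given in the sources used here.

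Genes and starts were protein-coding RefSeq genes on GRCh38.p14 (19675 of 20037 with a strand: 15842 from the promoter table, 3833 by symbol from GENCODE, whose coordinates, on another build, were not used). Peaks shared by neighbouring or overlapping genes counted for each. Bases covered by peaks were fitted with limma 3.58.1 (R 4.3.3), two-sided, with Benjamini-Hochberg adjustment over all genes tested and no covariates; the step was tested on simulated data. Overlap of both marks at a promoter was read between libraries with the same group and replicate number. Alternatives were another pseudocount, filters, windows, a stricter q, lists of equal length, highest fold, centring, a replicate block and leaving out each library. Named genes were those past an adjusted p of 0.05, with a group-specific promoter peak, with a listed site, leading their family in a mark, or among the 5 largest differences without overlap. The members and lists were chosen with earlier results of these data known. PECAM1 of the marker list was not matched.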

Additional observations from a re-analysis of the deposited data

How the results depend on the processing

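The number of genes called for H3K4me3 was 67, and it was 21 with a peak required in at least 4 libraries, 15 in the promoter window and 21 with the replicate block; leaving out 1 library at a time gave 47 to 134, the highest without V16D/H19 replicate 3. For H3K27me3, 2 genes were called, against 64 with a pseudocount of 0.1 kb, 35 in the promoter window, 86 with the stricter threshold and 79 for the highest fold over input, and 0 with a peak in at least 4 libraries, with lists of equal length, with centred libraries and with the replicate block; leaving out 1 library at a time gave 0 each time. The cause of these shifts was not tested.

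Correlations of same-numbered deviations from the group means lay between −0.03 and 0.01 over both marks. They were taken across genes, so a shift shared by a whole library does not enter them. Whether the replicate numbers pair the libraries therefore cannot be decided from them. With the replicate block EPHA6 stayed called and SEMA3C was not (adjusted p = 0.0795). Neither gene was called in the promoter window or for the highest fold over input (EPHA6 adjusted p = 0.935, SEMA3C 0.973). The highest-fold fit of UNC5B H3K27me3 (adjusted p = 0.00172) compares peaks with the value set where no peak is listed, and its size says nothing beyond their absence in V16D/H19.

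The difference in the mean number of axon guidance genes with a promoter H3K27me3 peak, V16D/H19 minus V16D/CTL, was 0 as reported, −6.67 with the stricter threshold and −2 with a single start at the 5′ end of each gene, an alternative chosen after seeing the data; for both marks it was −0.33 as reported and −6 with the stricter threshold. The 2 genes with H3K27me3 in a single group became 1 with a 3 kb promoter (UNC5B) and 1 with lists of equal length (EPHA7), and were PLXND1 and ROBO3 with the stricter threshold. Signs turned for NRP1 H3K4me3 by highest fold (0.11), and for SLIT1 H3K27me3 in the promoter window (0.064) and by highest fold (0.029). Read depth was not used here, so what it limits cannot be given.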
